A study of Mus musculus with 20 samples.

Results

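The genes described here are 57 mouse genes whose products build ribosomes in the nucleolus, followed in embryonic stem cells (ESCs) that had lost Cnot3, a subunit of the CCR4-NOT complex that shortens the poly(A) tails of cytoplasmic mRNAs. Members were taken from a list of symbols, matched to the Ensembl gene IDs of the count files, and all 57 of 57 were found among 37991 IDs and tested in every comparison. Cells here called KO carried a conditional Cnot3 allele and received 0.1 µM 4-hydroxytamoxifen (4OHT). Cells given DMSO are called WT, and whether those of day 3 carried the same allele could not be settled from the labels. In 1 experiment, RNA of whole cells (total) and RNA from polysomes, the fraction carrying several ribosomes, was sequenced on day 3. In the other, actinomycin D, which blocks transcription, was added at 10 µg/ml on day 2 and whole-cell RNA was taken at 0, 4 and 8 h. Each of the 10 groups (WT and KO in total RNA, in polysomes and at each of the 3 times) held 2 biological replicates, and strain was labelled C57BL/6 throughout. The 4 WT libraries of day 3 carry the source label E14Tg2a, a standard mouse ESC line, and all other libraries the label of the conditional Cnot3 ESCs, so line and deletion cannot be told apart on day 3. This doubt does not touch the actinomycin D series.

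Ribosome assembly starts when RNA polymerase I transcribes the ribosomal RNA precursor in the nucleolus. Small nucleolar ribonucleoproteins (snoRNPs) modify that RNA, the small subunit (SSU) processome folds and cuts it, and further factors finish the small and the large subunit before export. Fast-growing cells such as ESCs invest heavily in this pathway, and many of its genes are classical targets of MYC. The members comprised 6 genes of RNA polymerase I and its factors, 4 of box C/D and 3 of box H/ACA snoRNPs, 4 abundant nucleolar proteins, 23 SSU processome genes, 4 genes of late small subunit maturation and 13 of large subunit assembly.

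Each total library held 27664391 to 35170012 reads in genes. Polysome libraries held 13832829 to 16688555, and those of the actinomycin D time course 14513891 to 33262905. Levels are given as CPM (counts per M reads in genes), with library sizes scaled by TMM, a method that assumes most genes do not change. Every value is therefore relative to all other RNA of its library. Cnot3 stood at 46.2 and 47.1 CPM in WT total RNA and at 7.33 and 8.12 CPM in KO, and at 107.0 and 108.8 against 11.4 and 11.9 CPM at 0 h on day 2. Its log2 change in KO was -2.59 ± 0.16 (SE), -2.45 ± 0.15 in polysomes and -3.21 ± 0.07 at 0 h. The WT polysome replicates stood apart from each other, with a chi-square of 70.8 per degree of freedom over genes against 1.27 to 11.2 in the other groups, and the members sum to 16993 CPM in replicate 1 and 12196 CPM in replicate 2. Reads with several alignments were tallied in the total libraries alone, so levels were not compared between total RNA on day 3 and 0 h on day 2. All 10 ESC markers, Pou5f1 and Nanog among them, were detected at 0 h, where they summed to 5610 to 5612 CPM in WT and 3808 to 3809 CPM in KO. Trophectoderm markers (11 tested) summed to 164 to 175 CPM in WT and 303 to 314 CPM in KO at 0 h, and 12 summed to 196 to 205 and 686 to 704 CPM in total RNA. Feeder fibroblast markers summed to 27.2 to 27.4 CPM and 42.4 to 42.5 CPM at 0 h, with Dcn and Lum at 0 counts. The part of these shifts in the results below was not tested, and in bulk RNA fewer cells of a type and less RNA per cell cannot be told apart.

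The transcription block showed the clearest difference between the genotypes. In WT, 25 of 57 members fell after actinomycin D relative to all other RNA and 24 gained share, where 38.8% of all genes tested fell and 35% gained (73.8% in either direction). In KO 14 fell and 34 gained share, against 36.3% and 31.6% of all genes (67.9% in either direction). Of the 25 that fell in WT, 22 were lost more slowly in KO. Loss was measured as a slope, the log2 change per hour over 0, 4 and 8 h, and the slope difference (KO minus WT) was tested as an interaction by edgeR, with adjusted p under 0.05 over all 15823 genes as the call. In all, 26 members had a higher slope in KO and 4 a lower one, while 10.2% of all genes tested were called higher and 8.78% lower (19% in either direction). The median slope difference of the members was 0.040 log2 per hour, against -0.013 over all genes. Under library totals alone the counts were 34 higher and 2 lower (14.8% and 4.1% of all genes), and under RLE scaling (the median-ratio method of DESeq2) 29 and 0 (10.7% and 3.51%).

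Among the 6142 genes that fell in WT, 23.7% were called as lost more slowly in KO, and among the members 88%. All 15 members with a WT slope under -0.1 log2 per hour were called, against 20.4% of 5049 genes with such slopes, and all 11 under -0.2, against 16.5% of 2842. Of the 24 members that gained share in WT, 0 had a higher slope in KO and 4 a lower one, against 0.289% and 20.6% of 5543 genes. Of the 8 with no called WT slope, 4 had a higher slope in KO, against 3.5% of 4138 genes. These shares are a description, since WT libraries enter both the choice and the difference. The median slope of the 25 members was -0.16 in WT and -0.029 in KO.

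Mphosph10 (chr7:64376527-64392268, minus strand, GRCm38), a scaffold of the SSU processome that binds Imp3 and Imp4, had the steepest WT slope of the members. It went from 166 and 172 CPM at 0 h to 65.0 and 62.8 CPM at 4 h and 19.7 and 19.3 CPM at 8 h in WT. In KO it went from 173 and 174 CPM to 149 and 148 CPM and then to 114 and 110.3 CPM. At 0 h the genotypes were close, and at 8 h each KO library lay far above each WT library. The share of the 0 h level left at 8 h was 11.5% in WT and 64.8% in KO. The slope was -0.39 ± 0.01 (SE) in WT and -0.078 ± 0.010 in KO, a difference of 0.31 ± 0.01 (adjusted p = 7.4e-08, edgeR).

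Nufip1 (chr14:76110891-76137379, plus strand), which helps to assemble box C/D snoRNPs, had the highest slope difference of all members, 0.32 ± 0.01 (adjusted p = 4.2e-08, edgeR). Its level was 93.6 and 96.5 CPM at 0 h, 36.3 and 37.1 CPM at 4 h and 13.1 and 12.03 CPM at 8 h in WT. In KO the values were 122 and 120.0 CPM, 109 and 114 CPM, and 89.9 and 96.8 CPM. The genotypes did not overlap at any time, and by 8 h KO stood at 743% of WT, up from 127% at 0 h.

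**Figure D1:**
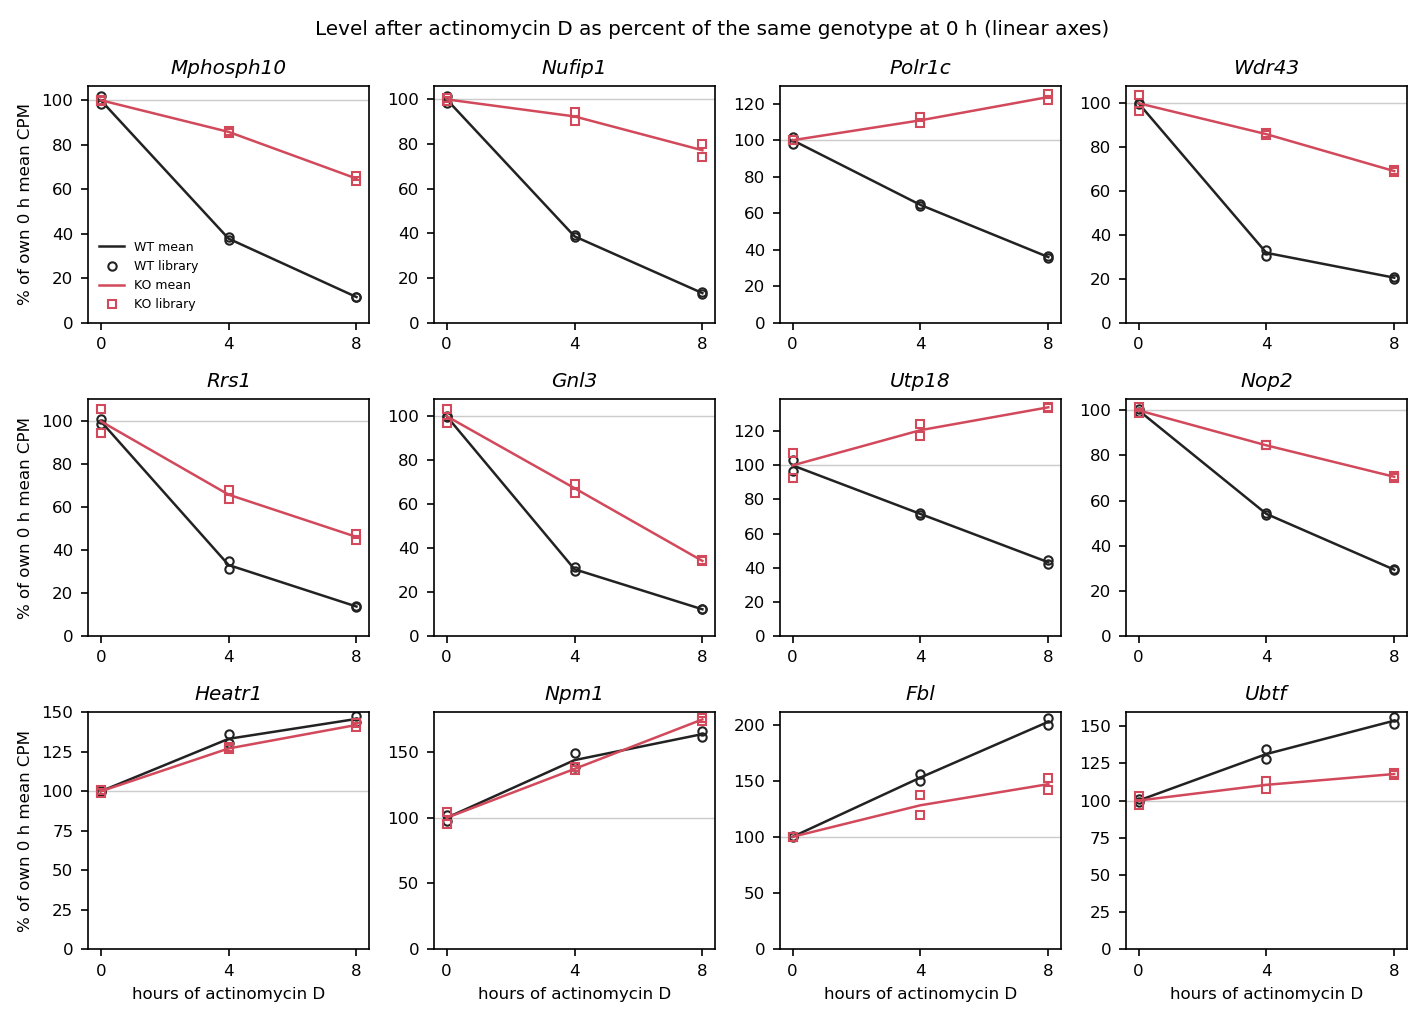
Levels of 12 members at 0, 4 and 8 h of actinomycin D (x axis, hours) as percent of the 0 h mean CPM of the same genotype (y axis, linear), with points for the 2 libraries of each group and lines through their means. The upper 8 genes fell in WT and had a higher slope in KO (Mphosph10: 11.5% left in WT and 64.8% in KO at 8 h). Of these, Polr1c and Utp18 gained share in KO. The lower 4 gained share in both genotypes.

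Other SSU processome genes moved the same way. Of the 23 processome members, 11 had a higher slope in KO and 1, Nol6, a lower one. Wdr43 went from 321 and 323 CPM at 0 h to 97.7 and 107 CPM at 4 h and 67.6 and 64.4 CPM at 8 h in WT, and from 329 and 354 CPM to 295 and 292 CPM and 237 and 235 CPM in KO. Most of the WT loss of Wdr43 came in the first 4 h, when 31.8% was left, against 85.9% in KO, so that a constant slope (-0.29 ± 0.02) describes it poorly. Utp18 fell in WT from 164 and 175 CPM to 71.4 and 75.2 CPM at 8 h, whereas in KO it gained share, from 201 and 232 CPM to 289.8 and 290.4 CPM. Its slope difference was 0.20 ± 0.01 (adjusted p = 1.7e-06, edgeR). Utp3 (0.16), the helicase gene Ddx52 (0.15), Utp15 (0.15), Ddx10 (0.10), Imp3 (0.095), Nop14 (0.087), Wdr75 (0.048) and Nol10 (0.045) made up the remaining higher slopes on the log2 per hour scale. Wdr75 and Nol10 lost their calls without several single libraries of 0 h or 8 h (adjusted p up to 0.104 and 0.110), and the other 9 kept theirs in every alternative run. Nol6 gained share in both genotypes, from 427 and 398 CPM to 803 and 757 CPM in WT and from 394 and 401 CPM to 578 and 557 CPM in KO. Its slope difference was -0.051 ± 0.015 (adjusted p = 0.030), with adjusted p of 0.055 to 0.137 under RLE scaling, library totals, DESeq2 or without any of 7 of the 8 libraries of 0 h and 8 h. Heatr1, a large scaffold protein of the processome, gained share in both genotypes, from 402 and 398 CPM to 589.9 and 576 CPM in WT and from 381 and 389.6 CPM to 553 and 543 CPM in KO.

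Large subunit assembly genes had 7 higher slopes and 0 lower ones among 13. Rrs1, which brings the 5S ribosomal RNA complex into the early large subunit, went from 98.2 and 100.4 CPM to 13.5 and 13.7 CPM over 8 h in WT and from 83.9 and 93.9 CPM to 42.04 and 39.9 CPM in KO. Gnl3 (nucleostemin), a nucleolar GTP-binding protein abundant in stem cells, went from 305 and 307 CPM to 37.3 and 36.7 CPM in WT and from 297 and 316 CPM to 105 and 104 CPM in KO. Nop2, an RNA methyltransferase, went from 324 and 319.9 CPM to 95.6 and 93.3 CPM in WT and from 332 and 323 CPM to 229.8 and 232 CPM in KO. In all 3 the KO libraries lay above the WT libraries at 8 h, whereas at 0 h Gnl3 and Nop2 overlapped and Rrs1 was lower in KO, a call lost with library totals alone (adjusted p = 0.917) and without KO replicate 1 (0.260) or WT replicate 2 (0.060) of 0 h. The slope differences were 0.22 ± 0.02 for Rrs1, 0.19 ± 0.02 for Gnl3 and 0.158 ± 0.009 for Nop2 (adjusted p = 2.1e-06, 2.3e-05 and 2.5e-07, edgeR). The remaining calls were Nol9 (0.081), Ebna1bp2 (0.063), Ddx56 (0.055) and Rrp1b (0.052). Of these, Ebna1bp2 lost its call with the replicate block and without any 1 library of KO at 0 h or 8 h or of WT at 8 h (adjusted p = 0.057 to 0.127), and Ddx56 without either KO library of 0 h, KO replicate 1 or WT replicate 2 of 8 h (0.050 to 0.058). Bop1, Pes1 and Wdr12, which form 1 complex needed for 28S ribosomal RNA maturation, had no called difference (-0.028 ± 0.017, -0.001 ± 0.013 and 0.043 ± 0.019). Bop1 gained share in both genotypes, from 271 and 260.5 CPM to 562 and 534 CPM in WT and from 239 and 240.2 CPM to 414 and 433 CPM in KO. Pes1 went from 290.2 and 293 CPM to 451 and 433 CPM in WT and from 268 and 269 CPM to 414 and 394 CPM in KO. Wdr12 went from 122 and 119 CPM to 111 and 109.9 CPM and from 103 and 112 CPM to 125 and 126 CPM. For Bop1 and Pes1 WT stood above KO at 0 h and 8 h, and for Wdr12 only at 0 h.

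In late small subunit maturation, 3 of 4 genes had a higher slope in KO and 0 a lower one. They were Tsr1 (0.13 ± 0.01), an assembly factor that occupies the immature small subunit, Nob1 (0.089 ± 0.012), the endonuclease that makes the final cut of 18S ribosomal RNA, and Ltv1 (0.071 ± 0.014). Nob1 stood at 123 and 125 CPM at 0 h and 63.4 and 65.3 CPM at 8 h in WT, and at 120.4 and 125 CPM and then 104 and 105 CPM in KO. Tsr1 shares 32.3% of its exon bases with Srr on the other strand, and the sources used here do not say whether counting used strand, so its reads cannot be told apart from those of Srr. Wdr3 (16.2%, with Gdap2 and Spag17) and Utp14a (11.5%) are the other members with more than 10% of exon bases shared.

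RNA polymerase I genes split. Polr1c (chr17:46243920-46248054, minus strand), a subunit shared by RNA polymerases I and III, went from 108 and 104 CPM to 69.1 and 67.6 CPM and then 38.8 and 37.4 CPM in WT. In KO it gained share, from 147 and 147 CPM to 160.5 and 165 CPM and then 184 and 179 CPM. Its slope difference was 0.22 ± 0.01 (adjusted p = 1.2e-07, edgeR), and KO stood at 477% of WT at 8 h. Polr1e, a subunit specific to polymerase I, had a difference of 0.090 ± 0.013 and the same direction. Polr1b, the second largest subunit, fell in both genotypes, from 211 and 205 CPM to 142 and 138 CPM in WT and from 179 and 179.9 CPM to 145 and 144 CPM in KO, with no called difference (0.032 ± 0.011, adjusted p = 0.053). Polr1a, the largest subunit, and Ubtf, which opens ribosomal DNA for transcription, gained share in both genotypes and less so in KO. Ubtf went from 456 and 447 CPM to 706 and 682 CPM in WT and from 317 and 338 CPM to 389 and 383 CPM in KO, a slope difference of -0.048 ± 0.012 (adjusted p = 0.011). Polr1a went from 318 and 301 CPM to 514 and 504 CPM in WT and from 304 and 310.5 CPM to 396 and 389 CPM in KO (-0.046 ± 0.013, adjusted p = 0.027). Under RLE scaling neither call held (adjusted p = 0.078 and 0.138). Polr1a also lost its call under library totals, DESeq2 and without any 1 of 7 libraries, all those of 0 h and 8 h but WT replicate 2 of 8 h (0.055 to 0.123), and Ubtf without WT replicate 2 of 0 h or KO replicate 2 of 8 h (0.057 in each). Rrn3, which recruits polymerase I to the promoter, had no called difference (-0.017 ± 0.010), with 401 and 398 CPM at 0 h and 483 and 467 CPM at 8 h in WT, and 293 and 309 CPM and then 326 and 325 CPM in KO.

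The snoRNP genes also split. Besides Nufip1, the core protein Nop56 had a higher slope in KO (0.088 ± 0.011), going from 326 and 305 CPM to 209 and 199.96 CPM in WT and from 239 and 252 CPM to 255 and 264 CPM in KO. Nop58 fell in both genotypes with no called difference (0.039 ± 0.014, adjusted p = 0.074). Fbl (fibrillarin, the methyltransferase of box C/D snoRNPs) gained share in both, from 79.3 and 80.3 CPM to 159 and 164 CPM in WT and from 66.9 and 66.6 CPM to 94.3 and 102 CPM in KO, and had a lower slope in KO (-0.058 ± 0.015, adjusted p = 0.015, but 0.071 under RLE scaling and 0.057 to 0.076 without either WT library of 0 h or KO replicate 1 of 8 h). The box H/ACA genes Dkc1, Nhp2 and Gar1 rose in share in both genotypes with 0 of 3 slope differences called. Dkc1 (dyskerin, the pseudouridine synthase) went from 391 and 400.3 CPM to 663 and 659.9 CPM in WT and from 307 and 322 CPM to 501 and 503 CPM in KO.

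The abundant nucleolar proteins had 1 higher slope in KO, in the helicase gene Ddx21 (0.054 ± 0.014, adjusted p = 0.017), which lost its call without KO replicate 1 at 0 h or 8 h or without either WT library of 8 h (adjusted p = 0.051 to 0.069). Ncl (nucleolin), which binds precursor ribosomal RNA, gained share in both genotypes, from 4675 and 4717 CPM to 8147 and 8183 CPM in WT and from 3508 and 3802 CPM to 5376 and 5392 CPM in KO. Npm1 (nucleophosmin), which organises the outer layer of the nucleolus, went from 2259 and 2355 CPM to 3731 and 3823 CPM in WT and from 1875 and 2051 CPM to 3409 and 3459 CPM in KO. Its slopes were 0.089 ± 0.012 and 0.10 ± 0.01, a difference of 0.012 ± 0.016 that was not called. Nolc1, a scaffold that accompanies snoRNPs, went from 732 and 713 CPM to 871 and 827 CPM in WT and from 625 and 659 CPM to 841 and 835 CPM in KO. A gain in share means slower loss than the average RNA of the library and does not show that the RNA increased.

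**Figure D2:**
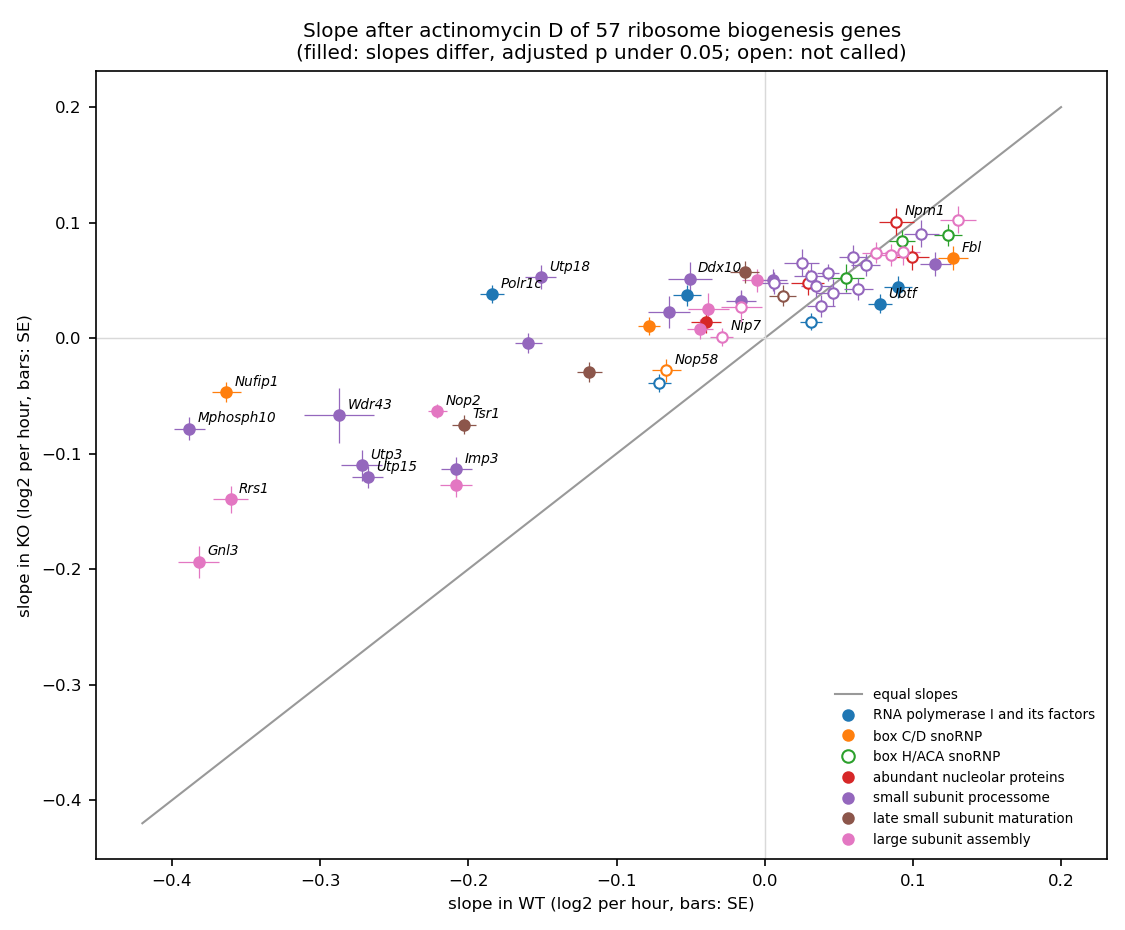
Slope after actinomycin D in WT (x axis) against KO (y axis), in log2 per hour with SE bars, for the 57 members coloured by role, with a grey line for equal slopes. Filled points are members whose slopes differed by edgeR (26 above the line, 4 below), and Nufip1 and Mphosph10, with WT slopes of -0.36 and -0.39, lie farthest above the line.

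The slower loss was compared with lists of related genes, fitted in the same libraries. Among 75 other ribosome biogenesis genes, 42 had a higher slope in KO and 3 a lower one, with a median difference of 0.056 log2 per hour. The 3 smallest p in that list were those of Brix1 (0.27 ± 0.02), Nol12 (0.20 ± 0.02) and Nom1 (0.17 ± 0.02). Of 10 genes of the RNA exosome, which trims ribosomal RNA precursors, 4 had a higher slope and 0 a lower one, led by Exosc4 (0.18 ± 0.02). Most cytosolic ribosomal protein genes (66 of 75) and all 20 aminoacyl-tRNA synthetases gained share in WT. Among all 5543 genes that did so, 0.289% had a higher slope in KO and 20.6% a lower one. Of the 24 members in that class 0 were higher and 4 lower. Of 75 cytosolic ribosomal protein genes 1 had a higher slope and 22 a lower one, with a median of -0.040. Of 20 aminoacyl-tRNA synthetases 0 were higher and 9 lower, with a median of -0.038. The lower calls in these lists depended on scaling (5 and 0 under RLE). MYC network regulators had 0 of 11 calls. Myc itself fell from 76.4 and 72.6 CPM to 5.68 and 5.40 CPM in WT and from 63.2 and 68.9 CPM to 3.40 and 3.64 CPM in KO, with a slope difference of -0.056 ± 0.144 (adjusted p = 0.845, edgeR).

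**Figure D3:**
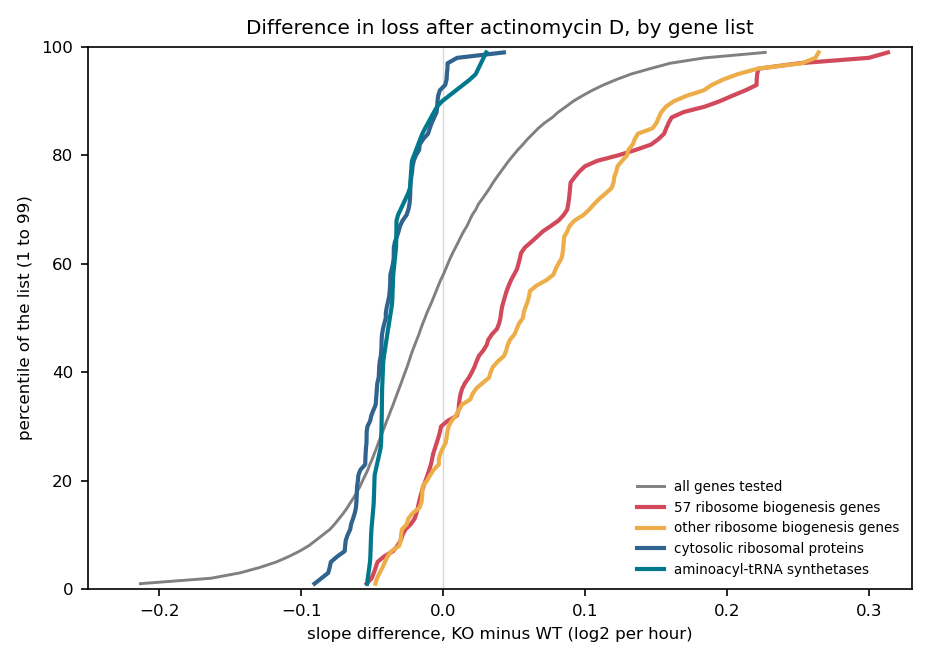
Percentiles 1 to 99 (y axis) of the slope difference KO minus WT (x axis, log2 per hour) in 5 sets of genes. The curves of the 57 members (median 0.040) and of the other ribosome biogenesis genes (median 0.056) lie to the right of all genes tested (median -0.013), and those of ribosomal proteins and synthetases (medians -0.040 and -0.038) to the left.

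Sequences in the 3′ untranslated regions (UTRs) were examined after the values were known, for 3 motifs bound by factors known to recruit CCR4-NOT. The 26 members with a higher slope in KO are here called slow-loss members, a name relative to WT. Of these, 4 (Ddx56, Ltv1, Nol10 and Wdr75) had no called WT slope and gained share in KO. Another 4 (Ddx10, Polr1c, Polr1e and Utp18) fell in WT and gained share in KO. The motifs were TGTANATA, bound by Pumilio proteins, and ATTTA and TATTTAT, which make up AU-rich elements, each searched on the sense strand of 1 GENCODE M21 transcript per gene (a TATTTAT holds an ATTTA). Sites are shown for the 4 members of largest slope difference with a TGTANATA match, and for Nufip1, which had 8 TATTTAT matches in a 3′ UTR of 2477 nt. Matches are in capitals, and positions are on GRCm38.
Nufip1, chr14:76136359-76136388, plus strand: TATTTATTTATTTATTTATTTATTTATtta
Polr1c, chr17:46243935-46243964, minus strand: aaggccgttgtTGTAAATAaattgctcttg
Wdr43, chr17:71657829-71657858, plus strand: gactttaactgTGTAAATAagagtgtttca
Utp18, chr11:93859565-93859594, minus strand: atccaattctaTGTATATAggtgtataaaa
Gnl3, chr14:31012468-31012497, minus strand: actgtacatctTGTAAATAtgtatcatgtt
TGTANATA was in the 3′ UTR of 7 of the 26 slow-loss members (26.9%), of 12 of all 57 (21.1%) and of 22.8% of 14254 protein-coding genes tested. TATTTAT was in 19.2% of the slow-loss members, 21.1% of all members and 25.8% of genes. ATTTA was in 57.7%, 54.4% and 63.1%. Mphosph10 and Rrs1, among the members of largest difference, had no TGTANATA match. The median 3′ UTR was 598 nt in the slow-loss members and 903 nt over all genes. The shares of genes with a match are near those of all genes. Per kb of 3′ UTR the slow-loss members held 0.317 TGTANATA, 2.31 ATTTA and 0.544 TATTTAT. Over all genes the values were 0.237, 1.78 and 0.282. The TATTTAT value rests mostly on Nufip1, with 8 matches, as Rrs1, Imp3, Ebna1bp2 and Ddx21 held 1 each and the other slow-loss members 0. It therefore does not describe the slow-loss members as a set. None of these differences per kb was tested. Matches are letters only, with no binding measured.

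Before the block, on day 2, most members differed little in size but precisely between genotypes. At 0 h, 11 members were higher in KO and 30 lower, with log2 changes from -0.49 to 0.53, while 29.8% of all genes were called higher and 32.9% lower (62.7% in either direction). The KO libraries lay above both WT libraries in 17 members and below both in 33, as they did in 39.2% and 41.5% of all genes. The median was -0.10 for the members and -0.01 over all genes. Scaling decided the direction of these small differences. Where only library totals were used (median of all genes 0.14), 24 members were higher and 13 lower (41.8% and 21.5% of all genes), and with RLE scaling (median of all genes -0.15) 6 were higher and 41 lower (22.4% and 43.6%).

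The lower members at 0 h were led by snoRNP core genes and polymerase I factors. Nop58 went from 515 and 536 CPM in WT to 353 and 394 CPM in KO (log2 -0.49 ± 0.06, adjusted p = 2.3e-06, edgeR). Nhp2, a core protein of box H/ACA snoRNPs, went from 369.6 and 362 CPM to 265 and 274 CPM (-0.44 ± 0.04). Ubtf (-0.46), Rrn3 (-0.41), Nop56 (-0.36) and Ncl (-0.36), whose 0 h levels are given above, made up the 6 lowest, and in all 6 the WT libraries lay above both KO libraries. All 3 box H/ACA genes and all 4 abundant nucleolar protein genes were lower, and the medians of both groups stayed below 0 with every scaling (-0.47 to -0.18 and -0.34 to -0.05). With library totals alone 2 of the 3 and 2 of the 4 were called lower, and Gar1, Nolc1 and Ddx21 were not. Large subunit assembly had 10 lower genes and 1 higher one of 13 (3 and 3 under library totals). The SSU processome had 7 higher and 5 lower of 23, which turned with scaling (15 and 2 under library totals, 2 and 12 under RLE). Lower levels at 0 h were not particular to these roles. Cytosolic ribosomal protein genes had 0 higher and 70 lower of 75 (1 and 60 under library totals). Aminoacyl-tRNA synthetases had 0 and 16 of 20 (4 and 8 under library totals). The 75 other ribosome biogenesis genes had 18 higher and 22 lower (46 and 16 under library totals), with a median of -0.015.

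The higher members at 0 h were led by 2 polymerase I subunit genes. Polr1e went from 57.1 and 58.8 CPM to 84.6 and 83.2 CPM (0.53 ± 0.05), Polr1c from 108 and 104 CPM to 147 and 147 CPM (0.47 ± 0.04) and Ddx56, a nucleolar helicase gene, from 193 and 186 CPM to 253 and 251 CPM (0.42 ± 0.05). Utp18 (0.35), Nufip1 (0.35) and Ddx10 (0.30, from 204 and 209.5 CPM to 244 and 265 CPM) completed the 6 highest, with adjusted p from 2.7e-12 to 2.2e-07 (edgeR). In these 6 genes the KO libraries lay above both WT libraries. Of the 26 members with a higher slope in KO, 7 were higher at 0 h, 10 were not called and 9 were lower. Over all genes tested, 29.8% were called higher at 0 h and 32.9% lower, so these counts are near the shares of all genes. The 0 h libraries enter both values, so this count is a description. Mphosph10 stood at 103% of WT at 0 h, Nop2 at 102%, Gnl3 at 100.1%, Wdr43 at 106% and Rrs1 at 89.5%, each below its share of WT at 8 h (577%, 244%, 283%, 358% and 302%).

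Levels per length at 0 h spanned a wide range among members. In WT, Npm1 stood at 866 CPM per kb of exon, Ncl at 461 and Nhp2 at 319, and Wdr12 at 10.1, the lowest. Npm1 and other abundant members have processed copies elsewhere in the genome, so their counts may be split or lost in a way that was not tested. Nop2 (116 CPM per kb) and Mphosph10 (45.7) fell in WT, whereas Fbl and Polr1a, lower per length at 19.0 and 26.0, gained share.

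On day 3, differences in total RNA ran from -0.75 to 0.49 on the log2 scale, with larger SEs than at 0 h. In total RNA 1 member was higher in KO and 7 lower, while 16% of genes were called higher and 12.2% lower (28.2% in either direction), and the median was -0.21 for the members against 0.01 over all genes. Where only library totals were used (median of all genes 0.28), 8 members were higher and 1 lower (28.3% and 4.96% of all genes). The counts also depended on single libraries. Without any 1 of the 4 total libraries (WT replicate 1, WT replicate 2, KO replicate 1 or KO replicate 2) 0 to 2 members were called (3.34% to 6.15% of all genes in either direction taken singly), and without WT polysome replicate 1 or replicate 2, which share the estimate of spread, 7 were higher and 29 lower (22.1% of all genes higher in each fit, and 24.5% and 24.6% lower). A fit of only the 4 total libraries gave 11 and 35 (28.9% of all genes in each direction).

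The members lower in total RNA were the snoRNP core genes Fbl, Nhp2, Nop58, Gar1 and Dkc1 and the genes Rrn3 and Utp14a. Fbl went from 388 and 319 CPM to 213 and 206 CPM (log2 -0.75 ± 0.23, adjusted p = 0.035, edgeR), and Nhp2 from 482 and 394 CPM to 279 and 255 CPM (-0.71 ± 0.17). Rrn3 went from 675 and 668 CPM to 424 and 409.9 CPM (-0.69 ± 0.16), and Gar1 from 80.1 and 66.3 CPM to 48.6 and 47.3 CPM (-0.61 ± 0.15). In these 4 genes both KO libraries lay below both WT libraries. Nop58 went from 673 and 619.5 CPM to 428 and 418 CPM (-0.61 ± 0.17), Utp14a from 186 and 177 CPM to 120.0 and 119.8 CPM (-0.60 ± 0.16) and Dkc1 from 469.9 and 454 CPM to 338 and 332 CPM (-0.46 ± 0.16, adjusted p = 0.0496). In each of the 7 the WT and KO libraries did not overlap. In all, WT lay above KO without overlap in 37 members and below it in 15, against 39.4% and 40.8% of all genes. All 3 box H/ACA genes were called, and their median stayed below 0 with every scaling (-0.67 to -0.35), but with library totals alone Gar1 and Dkc1 lost their calls (adjusted p = 0.090 and 0.333). The higher member was Ddx56, which went from 202 and 199.9 CPM to 291 and 274 CPM (0.49 ± 0.16, adjusted p = 0.040). Polr1c (0.46 ± 0.16) and Nufip1 (0.47 ± 0.17) missed the call, each with adjusted p = 0.053. Ribosomal protein genes had 0 higher and 42 lower of 75 (3 lower under library totals), and the MYC network regulators 1 higher and 5 lower of 11, among them Mycn (-1.53 ± 0.20), Max (-0.92 ± 0.17) and Mxd3 (-0.78 ± 0.18). Targets of p53, which respond to nucleolar stress, had 11 higher and 1 lower of 18.

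**Figure D4:**
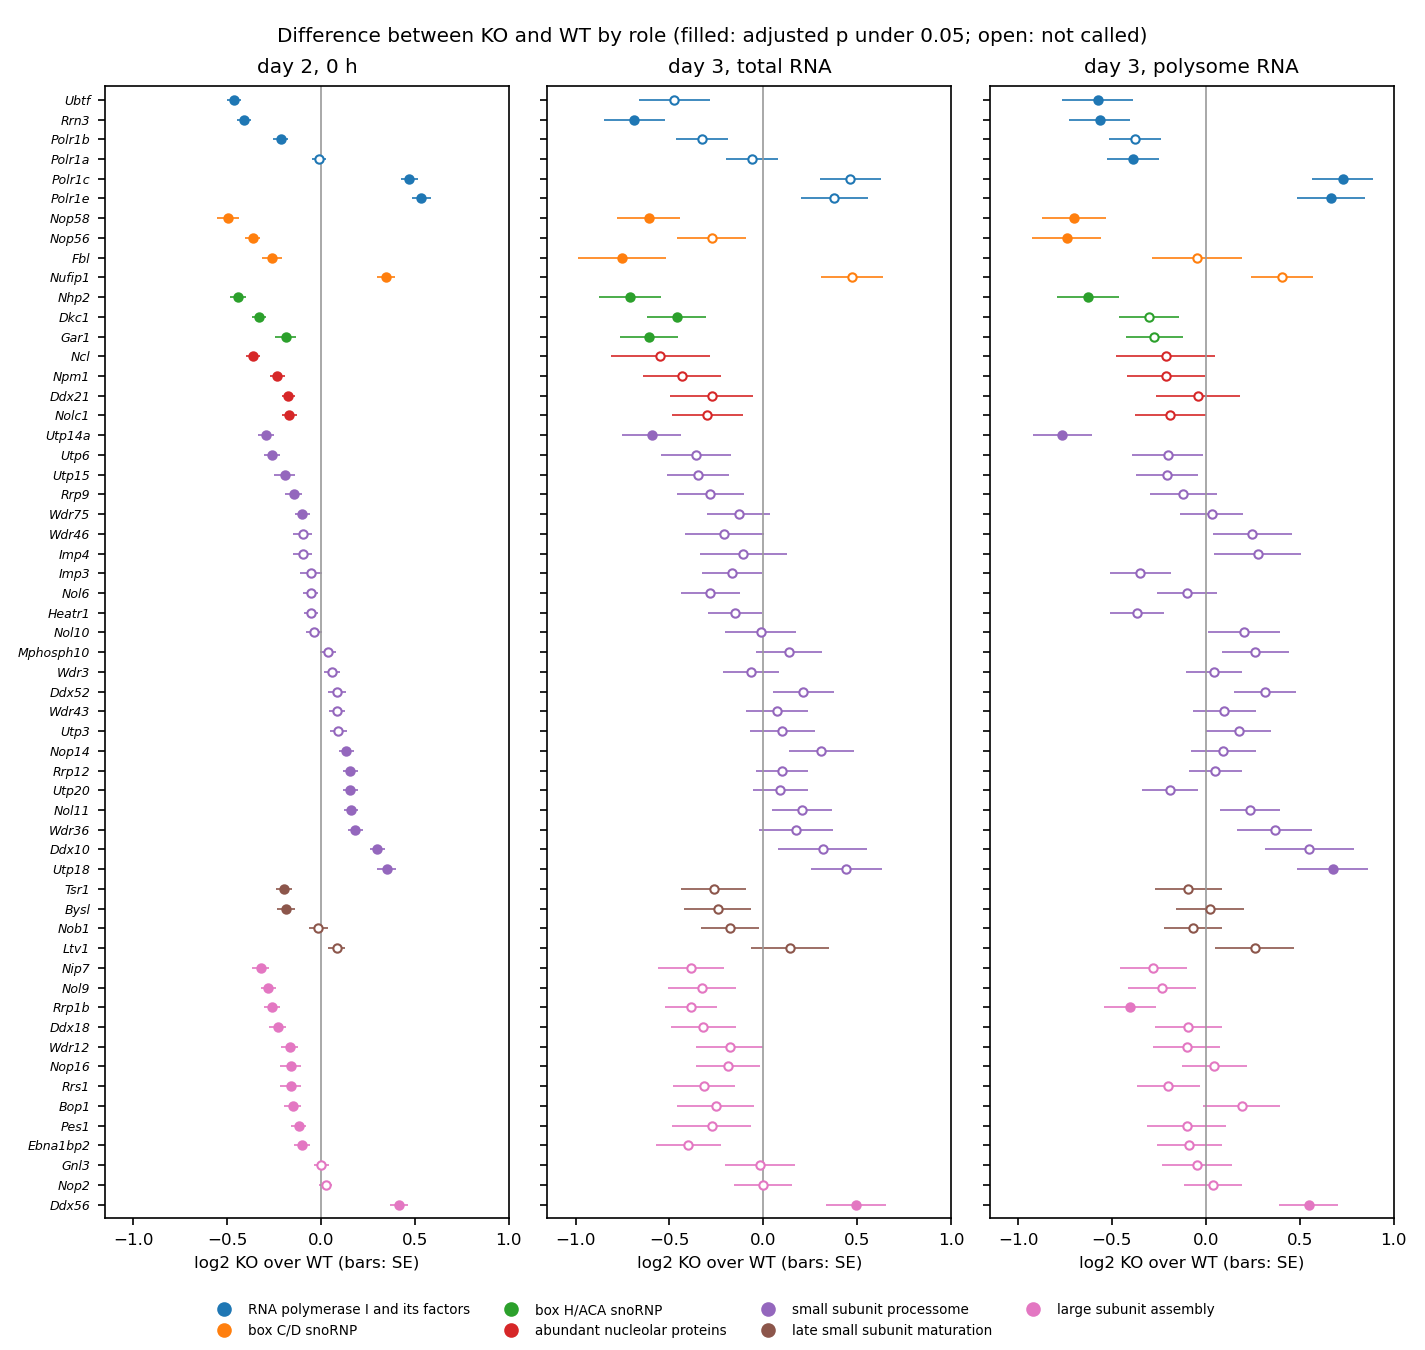
Log2 ratio of KO over WT (x axis, SE bars) of the 57 members (y axis, ordered by role and by the 0 h value) at 0 h on day 2, in total RNA and in polysome RNA on day 3, filled where the adjusted p was under 0.05. The day 2 values lie between -0.49 and 0.53 with short bars, and those of total RNA between -0.75 and 0.49 with longer ones.

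In polysomes, 4 members were higher in KO and 8 lower, against 15.9% and 21.1% of genes (37% in either direction), and the medians were -0.09 for the members and -0.08 over all genes. The higher members were Polr1c (0.73 ± 0.16), Utp18 (0.68 ± 0.19), Polr1e (0.67 ± 0.18) and Ddx56 (0.55 ± 0.16). Polr1c went from 111 and 90.7 CPM to 178 and 156 CPM and Utp18 from 189 and 125 CPM to 256 and 244 CPM, with KO above WT in each library. Polr1e went from 73.1 and 49.1 CPM to 101 and 92.6 CPM and Ddx56 from 179 and 142 CPM to 246 and 223 CPM. The lower members were Utp14a (-0.76 ± 0.16), Nop56 (-0.74), Nop58 (-0.70), Nhp2 (-0.63), Ubtf (-0.58), Rrn3 (-0.57), Rrp1b (-0.40) and Polr1a (-0.39). Utp14a, a processome subunit, went from 148 and 122 CPM to 87.9 and 71.6 CPM. Nop56 went from 216 and 309 CPM to 158 and 156 CPM, and Nop58 from 547 and 435 CPM to 294 and 309 CPM. Nhp2 went from 528 and 519 CPM to 358 and 321 CPM and Ubtf from 442 and 299 CPM to 245 and 252 CPM. In these 5 every WT library lay above every KO library, as in 14 members in all (34% of genes; the reverse held in 8 members and 27.9% of genes), although the WT replicates of Nop58 and Ubtf differed by more than 100 CPM. Leaving out each of the 8 day 3 libraries in turn, the median of the members ran from -0.27 to 0.19. More members were called higher than lower without WT polysome replicate 1, and more lower than higher without replicate 2. The direction of the member result in polysomes therefore depended on which WT library was kept. Of the 12 calls, 0 held in every alternative run. With library totals alone (median of all genes 0.15) the counts were 10 higher and 1 lower (24.8% and 10.9% of all genes).

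Polysome association was tested as the polysome contrast minus the total contrast. Of the members 0 were called (0 also by DESeq2, and 0 at an unadjusted p under 0.05), while 0.0109% of all genes were called (0.00546% in each direction). The differences ran from -0.47 ± 0.26 in Nop56 to 0.71 ± 0.34 in Fbl, so that the SEs were too wide to show changes of moderate size. Without WT polysome replicate 1, 29 members were called higher and 1 lower, while 9.05% and 15.2% of all genes were. Within WT, the polysome level of a member was between 16.6% (Fbl) and 168% (Gar1) of its total level. After Fbl (27.1% in KO), the lowest WT values were those of Utp20 (20.7%, and 17.0% in KO) and Heatr1 (21.1%, and 18.1% in KO). Exon length alone did not order these values: Utp20 has 10.2 kb of exon and Fbl 4.21 kb, and Wdr12 (11.96 kb) stood at 56.0%. Much of the Wdr12 length is a 3′ UTR of 8379 nt. By coding length, Utp20 (8370 nt), Heatr1 (6432 nt) and Polr1a (5154 nt, 35.8%) were long and low. Gar1 (696 nt), Imp3 (555 nt, 150%) and Nhp2 (462 nt, 120%) were short and high. Fbl (984 nt) and Npm1 (879 nt, 37.3%) were short and low. A dependence on length was not tested. The polysome shares of total level are relative to each library's RNA, and library type differed between the fractions. Reads with several alignments were tallied in the total libraries alone, and the part of this in the shares, that of Fbl included, was not tested.

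The KO effect in total RNA on day 3 was set against that at 0 h on day 2 in a joint fit, with day, library type and the label of the WT line confounded. The difference (day 3 minus day 2) was called lower in 5 members and higher in 0, while 2.29% of genes were called lower and 2.54% higher (4.83% in either direction). The 5 were Fbl (-0.46 ± 0.11), Gar1 (-0.39 ± 0.10), Utp14a (-0.27 ± 0.07), Ebna1bp2 (-0.27 ± 0.07) and Rrn3 (-0.24 ± 0.07), with adjusted p from 0.024 to 0.043 (edgeR). Leaving out each library in turn, the median difference of the members ran from -0.14 to -0.02. Of the 5 calls, 0 held in every alternative run.

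Promoters of the members were described from RefSeq sequence on GRCm38.p6, 250 bases before to 50 after the start site, found for 49 of 57 members. CACGTG, the E-box bound by MYC with MAX, was in 11 of 49 (22.4%), in 10.0% of 11205 protein-coding genes tested and in 7.24% of all 27025 promoters. CGGAAG, the core of sites for ETS-family factors, was in 63.3% of members and 29.6% of genes, each motif being searched on both strands, with overlaps allowed. GGGCGG was in 71.4% and 63.6%, and TATAAA in 6.12% and 7.09%. The 100 bases before the start site are shown for 4 of the 5 members with an E-box in that stretch (the other is Wdr46), with CACGTG and CGGAAG in capitals on either strand.
Nop2, chr6:125131783-125131882, plus strand: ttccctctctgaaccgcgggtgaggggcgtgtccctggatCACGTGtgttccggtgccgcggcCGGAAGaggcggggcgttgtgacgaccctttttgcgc
Utp18, chr11:93885767-93885866, minus strand: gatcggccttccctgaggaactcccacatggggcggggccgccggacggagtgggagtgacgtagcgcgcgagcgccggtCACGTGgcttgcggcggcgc
Nol11, chr11:107189382-107189481, minus strand: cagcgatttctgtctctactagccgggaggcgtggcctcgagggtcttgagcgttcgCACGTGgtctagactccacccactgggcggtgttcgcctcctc
Rrn3, chr16:13780599-13780698, plus strand: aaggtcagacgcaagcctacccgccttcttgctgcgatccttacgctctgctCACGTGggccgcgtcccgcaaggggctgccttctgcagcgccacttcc
The E-box starts 60 bases before the start site in Nop2, 20 in Utp18, 43 in Nol11 and 48 in Rrn3. At 0 h Utp18 was higher in KO (log2 0.35) and Rrn3 lower (-0.41), Nop2 was not called (0.02), and the call of Nol11 (0.16) was lost with RLE scaling (0.024, adjusted p = 0.592) and DESeq2. In the same libraries Mycn was lower in KO by 1.00 ± 0.05 and Myc by 0.17 ± 0.06 on the log2 scale. The motif marks letters in a window and no factor was measured.

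Small nucleolar RNAs lie inside 7 members (12.3%), against 1.21% of 20214 protein-coding genes. The hosts are Nop56 with 5 (Snord57 and Snord110 among them), Nop58 with 4, Gnl3, Ncl and Wdr43 with 3 each, Tsr1 with 2 and Dkc1 with 1. Of these 7 hosts, Gnl3, Wdr43, Tsr1 and Nop56 were lost more slowly in KO, and Ncl, Dkc1 and Nop58 had no called difference.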

How the data were processed

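RNA was sequenced from 20 libraries in 10 groups of 2. Per the submitters' processing notes, the authors used STAR (version 2.3.0e), HTSeq and the mouse build mm9, and the deposited values are whole-number read counts per Ensembl ID. The HTSeq version, annotation and strand setting are not given in the sources used here. Of the 37991 IDs, 32919 matched a GENCODE M21 symbol, and tallies that name no gene were left out of library sizes. They include reads without a feature, which made up 19.8% to 23.7% of gene, ambiguous and featureless reads in total libraries and 4.75% to 12.9% in the others. Counts were fitted with edgeR 4.0.16 (R 4.3.3): TMM scaling, genes kept by filterByExpr (minimum count 10), the robust quasi-likelihood test, and Benjamini-Hochberg adjustment over all genes tested, with calls at 0.05. All adjusted p are from this test unless DESeq2 (1.42.0) is named. 3 joint fits were made, of the 8 day 3 libraries, of the 12 actinomycin D libraries, and of the 8 total and 0 h libraries. Alternatives were other scalings, filters, DESeq2, a replicate block, time as a factor, separate fits and leaving out each library. Positions and 3′ UTRs come from GENCODE M21 on GRCm38 and promoters from RefSeq on GRCm38.p6, not the build of the counts. All 57 members may be named. Values per library were chosen for Cnot3, for fixed genes of each role and for up to 6 members at each end of a comparison, and up to 3 genes by smallest p for another list. The members, lists and roles were chosen with earlier results of these data known. The fit was also run on counts simulated from its own estimates of level and spread. Such counts cannot show whether the real libraries follow those estimates. Having 2 replicates a group limits the precision. The chi-square between replicates ran from 1.27 (KO 8 h) to 70.8 (WT polysome) per degree of freedom. The part of counting error in this spread was not tested.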

Additional observations from a re-analysis of the deposited data

Results flagged for a closer look

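A closer look is warranted at members whose effect of Cnot3 loss differed between times or between days by a test of the difference itself. For the slopes after actinomycin D, the difference KO minus WT in log2 per hour was tested as an interaction by edgeR and passed in 30 members. In the SSU processome it was 0.3101 for Mphosph10, 0.2206 for Wdr43, 0.2041 for Utp18, 0.1618 for Utp3, 0.1554 for Ddx52, 0.1479 for Utp15, 0.1021 for Ddx10, 0.0949 for Imp3, 0.0871 for Nop14, 0.048 for Wdr75, 0.0451 for Nol10 and -0.0506 for Nol6. In large subunit assembly it was 0.2207 for Rrs1, 0.1884 for Gnl3, 0.1581 for Nop2, 0.0808 for Nol9, 0.0632 for Ebna1bp2, 0.0553 for Ddx56 and 0.0518 for Rrp1b. In late small subunit maturation it was 0.1282 for Tsr1, 0.0891 for Nob1 and 0.0705 for Ltv1. Among snoRNP, nucleolar and polymerase I genes it was 0.3167 for Nufip1, 0.0883 for Nop56, -0.0579 for Fbl, 0.0538 for Ddx21, 0.2223 for Polr1c, 0.0897 for Polr1e, -0.048 for Ubtf and -0.0458 for Polr1a.

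For the change on day 3 minus that at 0 h on day 2, also tested by edgeR, 5 members passed: Fbl with -0.4603, Gar1 with -0.3895, Utp14a with -0.2699, Ebna1bp2 with -0.265 and Rrn3 with -0.2434 on the log2 scale. Day, library type and the labelled WT line cannot be told apart there.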

How the results depend on the processing

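Of 193 calls of single members, 114 held in every alternative run. For the slope difference 21 of 30 held, all of them higher slopes. The calls lost somewhere were Ddx21, Ddx56, Ebna1bp2, Nol10, Wdr75 and the 4 lower ones. At 0 h 19 of 41 calls held, and 0 of 8 in total RNA, 0 of 12 in polysomes and 0 of 5 for the day difference. The cause of the changes was not tested. With RLE scaling, the median log2 of the members was -0.2349 at 0 h (6 higher, 22.4% of all genes) and -0.2672 in total RNA (0 higher, 14.5%). It was 0.0515 for the KO slope and -0.001 for the WT slope, and 0 slope differences were lower (3.51% of all genes). With library totals alone, the median was 0.0544 at 0 h (24 higher, 13 lower) and 0.055 in total RNA (8 higher, 1 lower). It was 0.0574 for the slope difference (2 lower), 0.0135 for the KO slope and -0.0472 for the WT slope (15 higher, 23.6% of all genes). In polysomes 10 members were higher and 1 lower. For the day difference 1 was higher and 2 lower (5.5% and 1.42% of all genes). With DESeq2, the median was -0.2349 at 0 h (6 higher, 16.9% of all genes) and -0.2672 in total RNA (13 lower, 14.7%). It was 0.0515 for the KO slope and -0.0009 for the WT slope, and 2 slope differences were lower (5.16% of all genes). With no filter on low counts, the median was -0.2844 in total RNA (0 higher, 7% of all genes) and -0.008 for the WT slope. In that run 4 members were lower in polysomes (8.05% of all genes) and 9 for the day difference (3.55%). With genes of at least 1 CPM in 2 libraries, the median was -0.1808 in total RNA (3 higher, 18.2% of all genes). It was -0.004 for the WT slope, and 3 members were lower for the day difference (2.32% of all genes). Fits of only the 4 libraries compared gave 11 higher and 35 lower in total RNA (28.9% of all genes in each direction). In polysomes they gave 2 higher and 1 lower (12.3% and 9.41% of all genes). With time as a factor 35 slope differences were higher and 9 lower, against 18.2% and 24.3% of all genes. Directions reversed for Nop14 at 0 h (-0.0011 with RLE, -0.0012 with DESeq2). With library totals alone they reversed at 0 h for Pes1 (0.0347), Bop1 (0.0034), Wdr75 (0.0546), Ebna1bp2 (0.0544) and Rrp9 (0.0079), and for the WT slope for Nolc1 (-0.0128), Rrn3 (-0.0107), Wdr3 (-0.007), Wdr36 (-0.0103) and Utp14a (-0.0038). Leaving out each library in turn, the ranges were as follows. At 0 h the median was -0.1469 to -0.0886, with 9 to 12 higher and 24 to 32 lower. In total RNA it was -0.3008 to -0.2322, with 0 to 7 higher and 0 to 29 lower. In polysomes it was -0.2697 to 0.188, with 0 to 22 and 0 to 29. For polysome association it was -0.0643 to 0.4017, with 0 to 29 and 0 to 1. For the slope difference it was 0.0342 to 0.0469, with 21 to 32 higher and 0 to 5 lower. For the KO slope it was 0.0382 to 0.0412, with 29 to 37 and 11 to 14, and for the WT slope -0.0125 to 0.0031, with 21 to 25 and 23 to 25. For the day difference it was -0.1397 to -0.0201, with 0 to 1 and 0 to 10. In polysomes the direction of the member calls depended on which WT library was kept. Without WT polysome replicate 1 more members were called higher than lower, and without replicate 2 more lower than higher. Among all genes tested, more were called lower than higher in both of these fits. A group with 1 library left is assumed to vary like the others. In the sample titles, WT and KO replicates are linked only by number. Their deviations correlated at 0.17 (total RNA), 0.27 (polysomes) and 0.03 (0 h). Whether replicates of the same number were handled together was not tested. With the replicate block 3 members were higher in total RNA (16.4% of all genes). In that run 25 slope differences were higher and 4 lower (9.14% and 7.31% of all genes). At 0 h 11 members were higher and 30 lower (29.9% and 33%).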
